A study of Homo sapiens with 6 samples.

Results

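The genes described here carry out DNA replication: they license origins in G1, unwind DNA at the fork, copy it, and rebuild chromatin behind the fork. They were taken as a list of 60 gene symbols and matched to the gene symbols of the count files, and all 60 were found among the 54628 symbols listed. U87, an established human glioblastoma line, was grown in a co-culture and recovered on a flow sorter, and the series title names a shuttle of astrocyte mitochondria. The labels give 2 groups of 3 libraries: cycling cells with received mitochondria (received) and cycling cells without them (not received). The sources used here do not give the gates behind "cycling" and "received", the species of the astrocytes or the length of the co-culture. They also do not say whether replicates were separate cultures, so every p-value measures only how these samples spread, which may be technical.

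Before S phase, the origin recognition complex (ORC) together with CDC6 and CDT1 loads the ring-shaped MCM2 to MCM7 helicase onto DNA in an inactive form, a step called licensing. In S phase the kinase CDC7 with its activator DBF4, and the firing factor TICRR, help to turn the ring into the active helicase by adding CDC45 and the GINS complex, after which polymerases, the sliding clamp PCNA and its loader RFC follow. Geminin (GMNN) and the DTL ubiquitin ligase adaptor keep CDT1 from licensing DNA that has already been copied. Many of these genes are known targets of the E2F transcription factors, which link passage through G1 to the supply of replication proteins.

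Promoters of several of these genes are printed to show the letters E2F factors are known to bind. Each line gives the 100 bases just before the RefSeq transcription start on the gene's strand, 5′ to 3′, in assembly GRCh38.p14, and capitals mark every match to TTTGGCGC, TTTGCCGC, TTTCGCGC or TTTCCCGC on either strand. MCM6 and MCM7 stand for the helicase ring, GINS2 and POLE for members that were lower in received cells, PCNA for the clamp, and PRIM1 and DBF4 for members that were higher.
MCM6 (chr2:135876444-135876543, minus strand): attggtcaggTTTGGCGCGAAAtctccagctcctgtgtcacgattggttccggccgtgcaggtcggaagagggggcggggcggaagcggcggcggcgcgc
MCM7 (chr7:100101398-100101497, minus strand): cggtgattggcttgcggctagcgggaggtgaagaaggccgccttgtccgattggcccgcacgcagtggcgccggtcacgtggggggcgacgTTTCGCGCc
GINS2 (chr16:85688955-85689054, minus strand): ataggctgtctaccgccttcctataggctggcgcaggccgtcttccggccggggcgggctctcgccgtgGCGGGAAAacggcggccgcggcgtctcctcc
POLE (chr12:132687343-132687442, minus strand): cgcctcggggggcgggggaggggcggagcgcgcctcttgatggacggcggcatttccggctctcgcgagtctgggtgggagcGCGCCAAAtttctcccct
PCNA (chr20:5126623-5126722, minus strand): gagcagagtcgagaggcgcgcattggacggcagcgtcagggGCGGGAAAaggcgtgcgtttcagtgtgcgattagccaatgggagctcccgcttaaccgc
PRIM1 (chr12:56752324-56752423, minus strand): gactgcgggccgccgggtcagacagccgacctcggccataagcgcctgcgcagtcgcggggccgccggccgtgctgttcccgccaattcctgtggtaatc
DBF4 (chr7:87876393-87876492, plus strand): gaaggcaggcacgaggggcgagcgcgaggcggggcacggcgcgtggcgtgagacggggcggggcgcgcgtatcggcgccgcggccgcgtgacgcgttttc
In windows from 250 bases before to 50 bases after the start, 23 of the 52 replication genes with a promoter in the table (44.2%) held at least 1 of these 8-letter matches, against 561 of 10538 promoters of tested genes (5.32%) and 3.31% of all 35116 windows. MCM6 held 4 matches in that window, as 2 pairs, and MCM2, MCM3 and MCM7 held 2 matches each. In each MCM6 pair the matches are to different motifs on opposite strands and overlap, and 1 pair lies in the printed stretch. The 2 matches of MCM2 also overlap on opposite strands, while those of MCM3 and of MCM7 lie apart. The match was present in 7 of the 15 promoters of members called lower, in 16 of 32 of members not called and in 0 of 4 of members called higher. With the first T left off each of the 4 motifs, more promoters matched: 36 of 52 replication genes (69.2%) and 20.4% of tested genes held a match, among them 11 of 15 called lower, 23 of 32 not called and 2 of 4 called higher. A match is a run of letters and says nothing of whether a factor was bound in these cells.

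Totals ran from 17879552 counts (received replicate 3) to 46392491 (not-received replicate 2), and the libraries of a group always differed by more than counting noise (chi-square per gene from 3.39 to 22.1). Not-received replicate 2 stood apart, with a first principal component score of -44.4, while replicates 1 and 3 scored -13.8 and -14.8. Within the not-received group, its log2 level relative to replicates 1 and 3 went up with merged exon length across the 59 tested replication genes (Pearson r = 0.60, Spearman rho = 0.62, across genes of the same libraries, which are not independent replicates). Across the same genes, length and the log2 fold change had r = -0.28, and -0.12 without that library. The trend of that library with length was not particular to the replication genes. Over the 11622 tested genes with a length it had r = 0.39 and rho = 0.43. Length and the log2 fold change had r = -0.08 there, and 0.01 without that library. VIM and TNC, markers of the mesenchymal glioblastoma line, stood at 3556 to 4766 and 1725 to 2164 CPM (read counts normalised to library size with TMM factors). SOX2, too low to test, was at 0.483 to 0.837 CPM in received and 0 to 0.198 CPM in not-received libraries. Of 7 tested line markers 2 were called higher and 1 lower in received cells, against 9.21% and 9.67% of all tested genes. By edgeR's quasi-likelihood test, VIM rose by 0.26 ± 0.07 on the log2 scale (SE, adjusted p = 0.017) and NES by 0.46 ± 0.09 (adjusted p = 0.00274). CD44 fell by 0.23 ± 0.05 (adjusted p = 0.0111). The VIM and CD44 calls ended without any 1 received library. Of 12 astrocyte markers, AQP4, ALDH1L1 and GJB6 had 0 counts in every library and GFAP stood at 0.215 to 0.598 CPM. Some other genes were also at exactly 0 in every library, and whether the counting dropped such symbols was not tested, so an exact 0 is given here as listed and not as absence. The sum of the 12, mostly ALDOC, SLC1A3 and SLC4A4, was 84.4 to 97.9 CPM in received and 98.8 to 110.1 CPM in not-received libraries; its part in the results was not tested.

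Genes called lower in received cells included 3 subunits of the MCM ring and its partner CDC45. The flap enzymes FEN1 and LIG1 and both large subunits of the histone chaperone CAF-1 were also lower. Of the 6 ORC genes 1 was called higher and 0 lower, too few genes to tell from the 9.67% of all tested genes called lower. Of the 59 replication genes with enough counts to test, 17 were lower and 4 higher in received cells (adjusted p under 0.05, edgeR's quasi-likelihood test), and 38 were not called. That is 28.8% lower, where 9.67% of the 14100 tested genes were called lower, and 6.78% higher, where 9.21% of all tested genes were called higher. Scaled by library size alone, all tested genes split into 1110 lower and 1683 higher (60.3% of calls higher, against 48.8% of calls with composition factors), and the replication genes into 16 lower and 6 higher. The changes were small: the largest decrease was 1.34-fold (UNG) and the largest increase 1.24-fold (PRIM1), and the median log2 fold change was -0.11 over the replication genes and -0.00 over all tested genes. The remaining member, ASF1B, a histone chaperone of S phase, is listed at 0 counts in all 6 libraries, and so no level is given for it. In bulk RNA, fewer cells in S phase and less of a messenger RNA per cell cannot be told apart.

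The 60 genes together took 0.545, 0.558 and 0.569% of the counts in received replicates 1, 2 and 3 and 0.603, 0.598 and 0.590% in not-received replicates 1, 2 and 3. Each received library was thus below each not-received library. The median log2 deviation of a member from its not-received mean was -0.11, -0.13 and -0.05 in received replicates 1, 2 and 3, so replicate 3 lay closest to the not-received libraries. In 25 of the 59 tested members every received library was below every not-received one, a pattern that 19.5% of all tested genes showed, and in 6 every received library was above, which 19.5% of all tested genes showed as well.

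**Figure D1:**
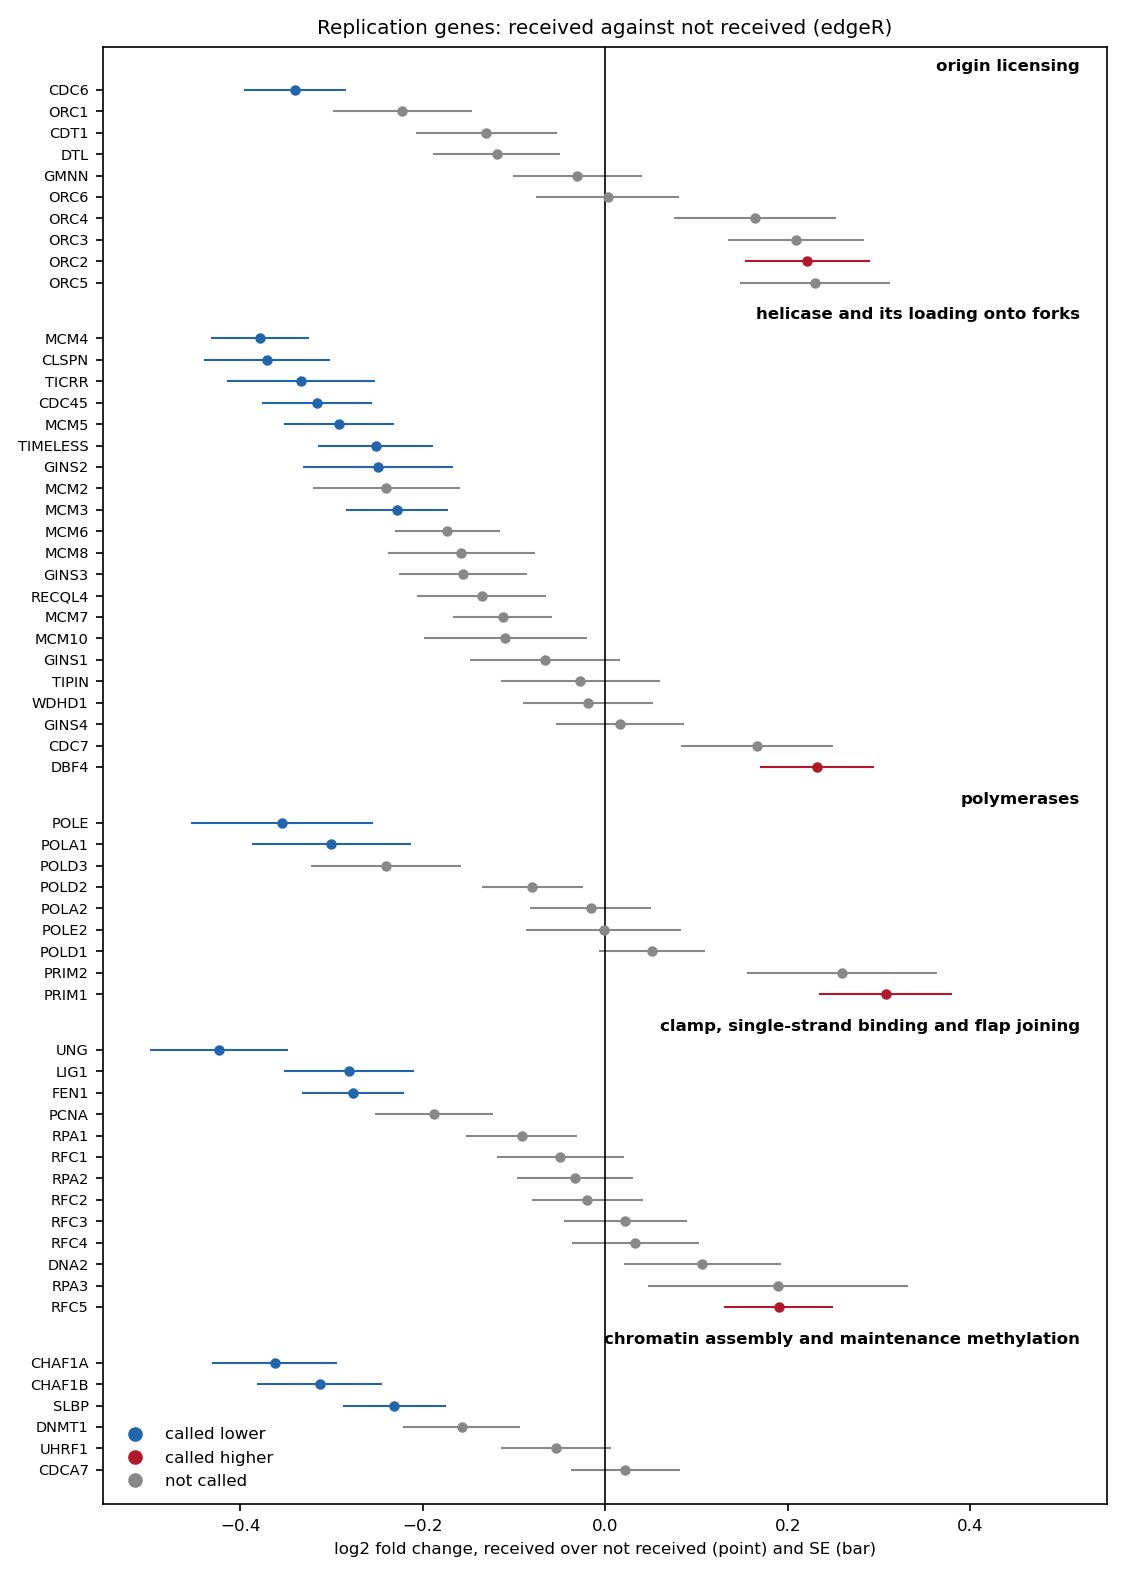
Log2 fold change of received over not-received cells (horizontal axis, point) with its SE (bar) for each of the 59 tested replication genes, grouped by role and coloured by edgeR call. The 8 lower calls of the helicase group lie between -0.38 and -0.23. ORC2, ORC3, ORC4 and ORC5 lie between 0.16 and 0.23, ORC6 at 0.00 and ORC1 at -0.22, and of these only ORC2 was called.

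Among the licensing genes, 1 of 10 fell and 1 rose, close to the share over all tested genes. CDC6, the ATPase that brings the MCM ring to ORC, stood at 110.3, 112 and 118 CPM in received replicates 1, 2 and 3 and at 143, 145 and 143 CPM in not-received replicates 1, 2 and 3. Every received library was below every not-received library, and CDC6 fell by 0.34 ± 0.06 on the log2 scale (SE; edgeR adjusted p = 0.00112). CDT1, its partner in loading, overlapped between the groups: 74.4, 71.8 and 87.1 CPM in received and 88.7, 80.3 and 86.5 CPM in not-received libraries, with received replicate 3 inside the not-received range (log2 fold change -0.13 ± 0.08, adjusted p = 0.257). Geminin, the inhibitor of CDT1, lay at 56.8, 52.2 and 58.4 CPM and 57.5, 54.4 and 59.2 CPM (log2 fold change -0.03 ± 0.07, adjusted p = 0.794), and DTL, which directs CDT1 to degradation in S phase, had a log2 fold change of -0.12 ± 0.07 (adjusted p = 0.247). Both overlapped between the groups.

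Of the 6 subunits of ORC, 1 rose and 5 were not called. ORC1, the subunit whose level is known to follow the cell cycle, stood at 22.1, 21.3 and 21.6 CPM in received and 24.9, 26.2 and 24.6 CPM in not-received libraries, without overlap, but missed the threshold (log2 fold change -0.22 ± 0.08, adjusted p = 0.0576). ORC2, a core subunit, had 48.7, 52.2 and 49.6 CPM against 43.8, 42.0 and 43.5 CPM and rose by 0.22 ± 0.07 on the log2 scale, as are all changes given below (adjusted p = 0.0372). Its call was lost in 6 of the 11 alternatives, among them each fit without 1 received library, with adjusted p up to 0.15. ORC3 (0.21 ± 0.07, adjusted p = 0.064), ORC4 (0.16 ± 0.09, adjusted p = 0.208) and ORC5 (0.23 ± 0.08, adjusted p = 0.0654) had positive log2 fold changes that were not called. ORC6, which joins ORC loosely, overlapped between the groups at 88.8, 95.9 and 103 CPM in received and 103, 85.4 and 99.1 CPM in not-received libraries (log2 fold change 0.00 ± 0.08, adjusted p = 0.985). Whether the subunits differ from each other in their change was not tested.

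The helicase group held the most lower calls: 8 of 21 fell and 1 rose (38.1% and 4.76%). Over all tested genes 9.67% fell and 9.21% rose. In all 6 genes of the MCM2 to MCM7 ring every received library lay below every not-received library, and 3 of the 6 were called. Of all tested genes 19.5% showed that same separation. MCM4 stood at 250.3, 246 and 258 CPM in received and 321, 337 and 322 CPM in not-received libraries, a fall of 0.38 ± 0.05 on the log2 scale (adjusted p = 0.000378). MCM5 stood at 195, 196 and 217 CPM against 253, 253 and 239 CPM and fell by 0.29 ± 0.06 (adjusted p = 0.00471). MCM3 stood at 407, 428 and 444 CPM against 503, 510.2 and 484 CPM and fell by 0.23 ± 0.06 (adjusted p = 0.0123). In MCM5 and MCM3, received replicate 3 was the highest of its group. Leaving out received replicate 1 ended the calls of MCM5 (adjusted p = 0.0505) and MCM3 (0.10), and leaving out received replicate 2 ended that of MCM3.

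The other ring subunits were not called. MCM2 stood at 95.0, 95.1 and 107 CPM in received and 109, 131 and 109 CPM in not-received libraries, with not-received replicate 2 the highest (log2 fold change -0.24 ± 0.08, adjusted p = 0.0543, and -0.14 without that library). MCM6, whose promoter is printed above, stood at 222, 223 and 235 CPM against 249, 248 and 269 CPM (log2 fold change -0.17 ± 0.06, adjusted p = 0.0503). MCM7 stood at 294, 298 and 309.5 CPM against 337, 321 and 317 CPM (log2 fold change -0.11 ± 0.05, adjusted p = 0.167). DESeq2 called 5 of the 6 ring genes lower where edgeR called 3, and MCM6 was called without not-received replicate 2 (adjusted p = 0.0136). Per kilobase of merged exon (GENCODE 29), the ring genes were not level with each other in received cells: MCM3 was highest at 133 ± 5.66 CPM per kb (SD, n = 3), then MCM7 at 82.3 ± 2.25, MCM6 at 60.6 ± 1.96, MCM4 at 57.9 ± 1.36, MCM5 at 57.3 ± 3.51 and MCM2 at 27.3 ± 1.88. The libraries of MCM5 overlapped those of MCM4 and MCM6, while those of MCM4 and MCM6 did not overlap each other. In not-received cells the order was MCM3 (155 ± 4.15), MCM7 (88.9 ± 2.98), MCM4 (75.2 ± 2.12), MCM5 (70.2 ± 2.32), MCM6 (68.4 ± 3.17) and MCM2 (32.2 ± 3.53), with the libraries of MCM5 and MCM6 overlapping. MCM8, which belongs to a separate helicase of recombination, overlapped between the groups (log2 fold change -0.16 ± 0.08, adjusted p = 0.186).

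Of the factors that turn the ring into the moving helicase, CDC45, TICRR and GINS2 were called lower and DBF4 higher. CDC45, which completes the active helicase, stood at 72.2, 69.5 and 71.9 CPM in received and 91.9, 87.0 and 87.2 CPM in not-received libraries and fell by 0.32 ± 0.06 (adjusted p = 0.0029). TICRR, which helps to bring CDC45 to the ring, stood at 29.7, 33.8 and 32.4 CPM against 40.0, 42.9 and 37.5 CPM and fell by 0.33 ± 0.08 (adjusted p = 0.0122). Neither gene overlapped between the groups, and the call of TICRR ended without received replicate 1 or 3 (adjusted p up to 0.0867). Of the 4 GINS subunits 1 was called: GINS2 stood at 40.0, 44.1 and 46.5 CPM against 56.1, 47.8 and 51.7 CPM and fell by 0.25 ± 0.08 at the edge of the threshold (adjusted p = 0.0498), a call kept in 3 of 11 alternatives. GINS1 (-0.07 ± 0.08), GINS3 (-0.16 ± 0.07) and GINS4 (0.02 ± 0.07) were not called (adjusted p = 0.612, 0.137 and 0.893).

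DBF4 was the 1 helicase-group gene called higher. This activator of the CDC7 kinase stood at 90.0, 92.2 and 88.4 CPM in received and 73.1, 76.3 and 81.0 CPM in not-received libraries and rose by 0.23 ± 0.06 (adjusted p = 0.0202), with no overlap. Its call ended without any 1 received library or without not-received replicate 1 (adjusted p up to 0.0922). CDC7 itself stood at 24.1, 25.4 and 26.6 CPM against 22.7, 21.1 and 24.2 CPM, with overlap (log2 fold change 0.17 ± 0.08, adjusted p = 0.179). RECQL4 and MCM10, both needed to start forks, had log2 fold changes of -0.14 ± 0.07 and -0.11 ± 0.09 and were not called (adjusted p = 0.197 and 0.417).

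**Figure D2:**
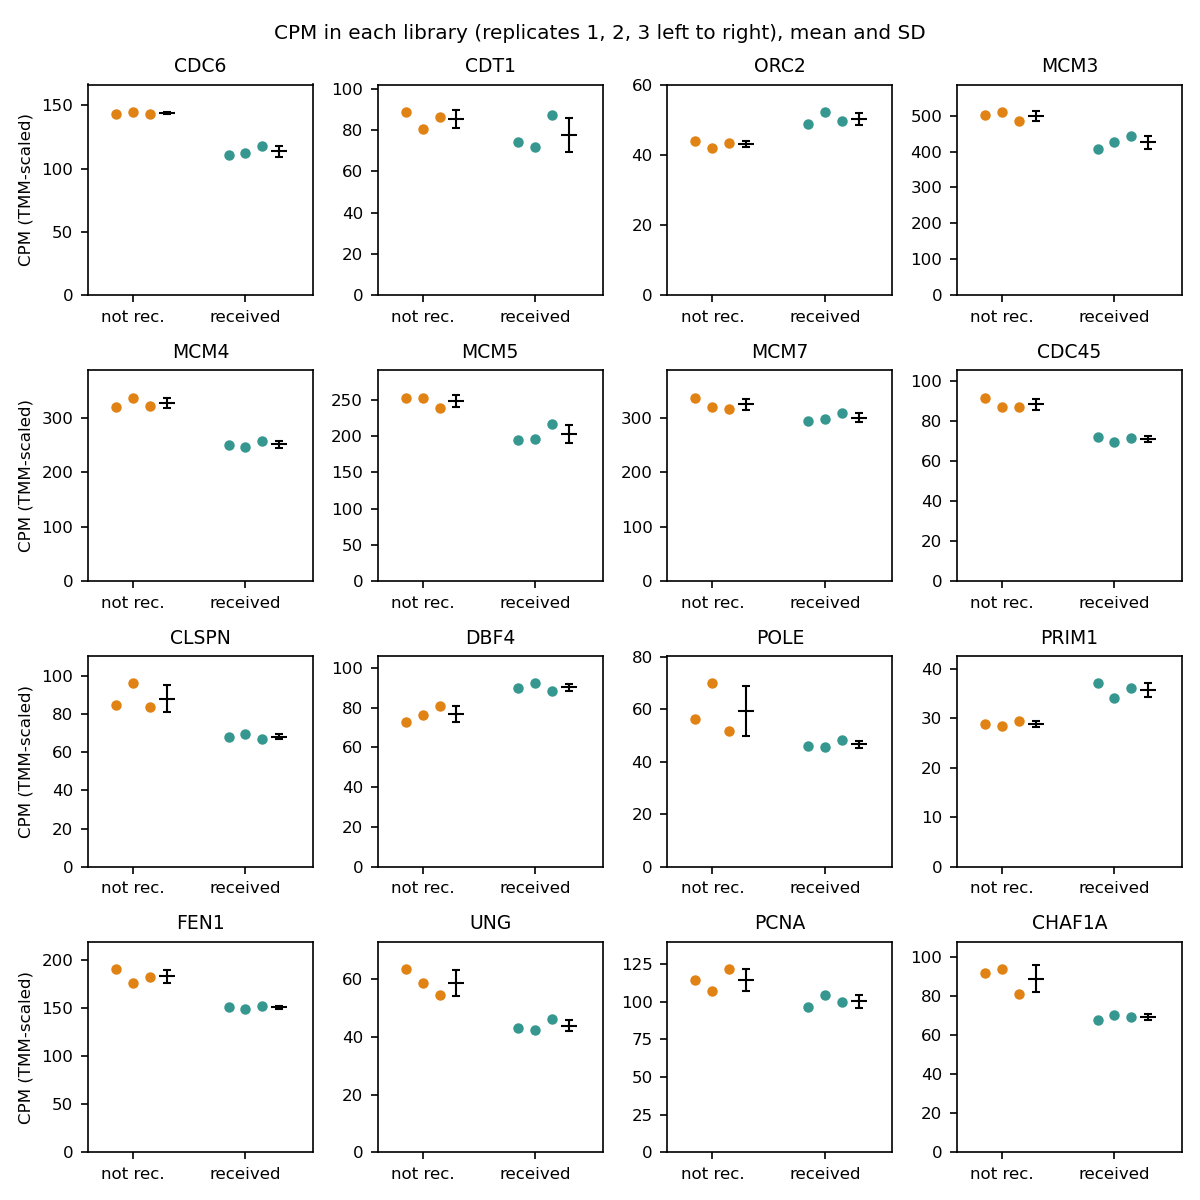
TMM-scaled CPM (vertical axes, each from 0) of 16 replication genes in each library, with replicates 1, 2 and 3 from left to right in each group and the mean and SD in black. CDC6, MCM3, MCM4, MCM5, MCM7, CDC45, CLSPN, POLE, FEN1, UNG, PCNA and CHAF1A are lower in all 3 received libraries. Of these, MCM7 and PCNA were not called. ORC2, DBF4 and PRIM1 are higher in all 3, and CDT1 overlaps.

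Genes of the fork protection complex, which keeps the helicase and the polymerases together and passes on stalling signals, were lower in 2 of 3 cases. Over all tested genes 9.67% were called lower, and 3 genes are too few to compare with that share. CLSPN (claspin) stood at 68.2, 69.6 and 66.8 CPM in received and 84.6, 96.0 and 83.4 CPM in not-received libraries and fell by 0.37 ± 0.07 (adjusted p = 0.00247). TIMELESS stood at 91.8, 93.9 and 92.5 CPM against 109, 118 and 104 CPM and fell by 0.25 ± 0.06 (adjusted p = 0.0142), a call that ended without any 1 received library (adjusted p up to 0.0816). In both, not-received replicate 2 was the highest library, and without it the log2 fold changes were -0.30 for CLSPN and -0.20 for TIMELESS, both still called. TIPIN, the partner of TIMELESS, overlapped between the groups at 22.4, 20.5 and 24.9 CPM and 23.7, 22.8 and 22.6 CPM (log2 fold change -0.03 ± 0.09, adjusted p = 0.856). WDHD1, which ties polymerase alpha to the helicase, had a log2 fold change of -0.02 ± 0.07 (adjusted p = 0.876).

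Among the polymerase genes 2 of 9 fell and 1 rose (22.2% and 11.1%, against 9.67% and 9.21% of all tested genes). The 2 that fell are large catalytic subunits. POLE, the catalytic subunit of the leading-strand polymerase epsilon, stood at 46.1, 45.7 and 48.4 CPM in received and 56.5, 69.9 and 51.8 CPM in not-received libraries and fell by 0.35 ± 0.10 (adjusted p = 0.0277). POLA1, the catalytic subunit of polymerase alpha, stood at 48.8, 52.1 and 56.8 CPM against 60.9, 72.7 and 59.6 CPM and fell by 0.30 ± 0.09 (adjusted p = 0.0293). Not-received replicate 2 was the highest library for both, and without it the log2 fold changes were -0.21 for POLE (adjusted p = 0.0367) and -0.20 for POLA1 (adjusted p = 0.0548, not called). Both calls ended whenever 1 received library was left out (adjusted p up to 0.159).

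The primase genes, whose products lay down the RNA primers for polymerase alpha, both had positive log2 fold changes, and 1 was called. PRIM1, the catalytic primase, stood at 37.0, 34.2 and 36.0 CPM in received and 28.8, 28.4 and 29.5 CPM in not-received libraries, with no overlap, and rose by 0.31 ± 0.07 (adjusted p = 0.0104, and 0.0584 without received replicate 1). PRIM2, its regulatory partner, stood at 44.8, 47.1 and 51.1 CPM against 40.0, 33.9 and 46.2 CPM, missing the threshold (log2 fold change 0.26 ± 0.10, adjusted p = 0.103), and its log2 fold change was 0.14 without not-received replicate 2. So within the single complex of polymerase alpha and primase, 1 gene was called lower (POLA1), 1 higher (PRIM1) and 2 were not called, POLA2 having a log2 fold change of -0.02 ± 0.07 (adjusted p = 0.89). The difference between subunits was not tested. In polymerase delta, the lagging-strand enzyme, POLD1 (0.05 ± 0.06), POLD2 (-0.08 ± 0.06) and POLD3 (-0.24 ± 0.08) were not called (adjusted p = 0.574, 0.335 and 0.0566). POLE2, the second subunit of polymerase epsilon, overlapped between the groups at 26.9, 24.1 and 25.5 CPM in received and 24.9, 24.0 and 28.0 CPM in not-received libraries.

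In the group of clamp, loader, single-strand binding and joining genes, 3 of 13 fell and 1 rose (23.1% and 7.69%). Over all tested genes 9.67% fell and 9.21% rose, so 1 of 13 higher is close to that share. FEN1, the nuclease that trims the flaps of Okazaki fragments, stood at 152, 149 and 152 CPM in received and 190.4, 176 and 182 CPM in not-received libraries and fell by 0.28 ± 0.06 (adjusted p = 0.00403). LIG1, the ligase that seals them, stood at 51.5, 56.4 and 56.3 CPM against 68.9, 68.3 and 61.9 CPM and fell by 0.28 ± 0.07 (adjusted p = 0.0152), a call that ended without any 1 received library (adjusted p up to 0.105). UNG, the uracil-DNA glycosylase whose nuclear form works at the fork, stood at 43.1, 42.5 and 46.1 CPM against 63.5, 58.7 and 54.5 CPM and fell by 0.42 ± 0.08 (adjusted p = 0.00188), the largest decrease among the replication genes. All 3 genes were lower in every received library. DNA2, a nuclease for long flaps, was not called (log2 fold change 0.11 ± 0.09, adjusted p = 0.411).

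PCNA, the clamp to which these enzymes bind, stood at 96.3, 104 and 99.7 CPM in received and 114, 107 and 121 CPM in not-received libraries. The groups did not overlap, yet PCNA missed the threshold (log2 fold change -0.19 ± 0.06, adjusted p = 0.0575). Without not-received replicate 2 it was -0.24 with adjusted p = 0.00706. Of the 5 subunits of the clamp loader 1 was called higher: RFC5 stood at 99.3, 102 and 102 CPM against 87.6, 85.1 and 93.0 CPM and rose by 0.19 ± 0.06 (adjusted p = 0.0402), while RFC1, RFC2, RFC3 and RFC4 lay between -0.05 and 0.03 and were not called. The call of RFC5 was kept in 4 of 11 alternatives, and without not-received replicate 2 its adjusted p was 0.0551. Of the single-strand binding protein RPA, RPA1 (-0.09 ± 0.06), RPA2 (-0.03 ± 0.06) and RPA3 (0.19 ± 0.14) all overlapped between the groups and were not called (adjusted p = 0.313, 0.754 and 0.393). RPA3 was lowest in not-received replicate 2, at 36.2 CPM, and its log2 fold change was 0.03 without that library.

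Behind the fork, 3 of 6 tested genes of chromatin assembly and maintenance methylation fell and 0 rose (by edgeR or DESeq2, and 0 at an unadjusted p under 0.05). By edgeR, 9.67% of all tested genes fell and 9.21% rose. Both large subunits of CAF-1, the chaperone that sets new histones H3 and H4 on copied DNA at PCNA, were among the 3 that fell. CHAF1A stood at 67.7, 70.3 and 69.4 CPM in received and 91.8, 93.6 and 81.0 CPM in not-received libraries and fell by 0.36 ± 0.07 (adjusted p = 0.00274). CHAF1B stood at 35.2, 35.6 and 36.6 CPM against 44.9, 44.6 and 43.9 CPM and fell by 0.31 ± 0.07 (adjusted p = 0.00669, and 0.0504 without received replicate 1). SLBP, which binds the stem-loop of replication-dependent histone messages, stood at 99.0, 104 and 104 CPM against 122, 118 and 119.6 CPM and fell by 0.23 ± 0.06 (adjusted p = 0.0124), a call that ended without any 1 received library (adjusted p up to 0.0916). No received library reached the not-received range for any of the 3.

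The DNA methylation genes of this group were not called. DNMT1, the maintenance methyltransferase, stood at 278, 291 and 295 CPM in received and 323, 346 and 294 CPM in not-received libraries and overlapped (log2 fold change -0.16 ± 0.06, adjusted p = 0.104). UHRF1, which brings DNMT1 to hemimethylated DNA, stood at 231, 227 and 246 CPM against 251, 251 and 229 CPM (log2 fold change -0.05 ± 0.06, adjusted p = 0.568). CDCA7, an activator of the remodeler HELLS, had a log2 fold change of 0.02 ± 0.06 (adjusted p = 0.824). Its relative CDCA7L had a level of 91.0% of that of CDCA7 in CPM, and the sources used here do not say how reads shared by 2 genes were counted. Pseudogene or antisense symbols of the other members held at most 0.473% of their member's CPM (DBF4P1 against DBF4).

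Of the 17 lower calls, 7 held in all 11 alternatives: CDC6, MCM4, CDC45, CLSPN, FEN1, UNG and CHAF1A. None of the 4 higher calls did. Leaving out received replicate 1, 2 or 3 left 7, 10 or 10 lower and 0, 1 or 1 higher calls, and over all genes such fits made 691 to 748 lower calls instead of 1364. Without not-received replicate 2, the library that stood apart, 18 members were lower and 3 higher, and 19 of the 21 calls were shared. A further 9 members, not called with all 6 libraries, were called in at least 1 alternative.

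**Figure D3:**
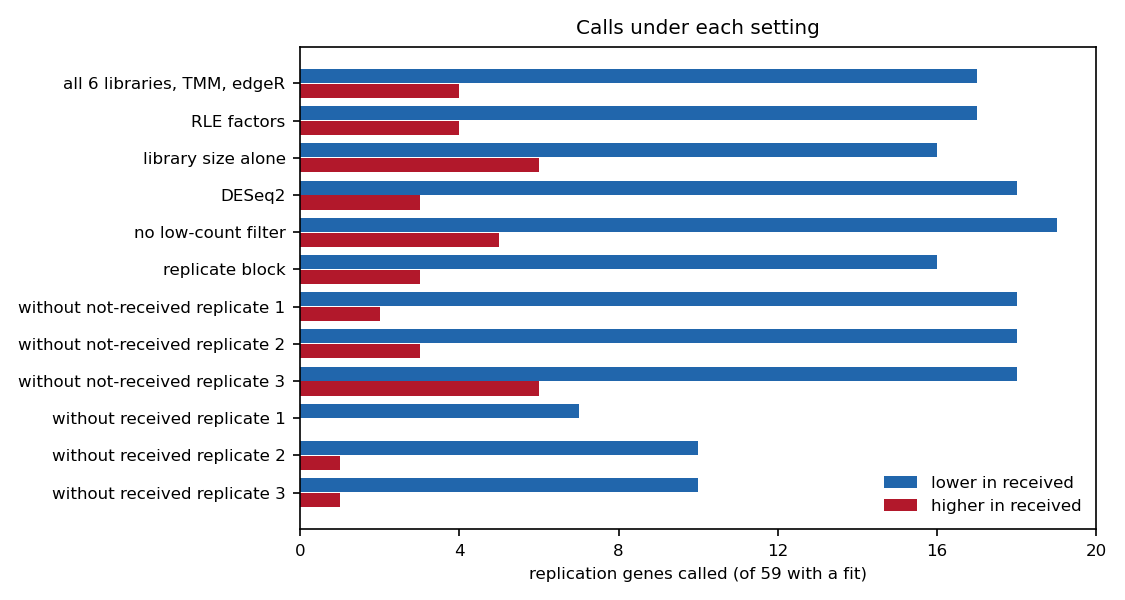
Number of the 59 tested replication genes called lower (blue) or higher (red) in received cells (horizontal axis) under each setting. Lower calls number 16 to 19 wherever all 3 received libraries are kept and 7 to 10 when 1 of them is left out.

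The wider replication machinery was examined through lists that hold none of the genes above. Of 27 other replication and fork factors tested, 0 fell and 1 rose, against 9.67% and 9.21% of all tested genes. The median log2 fold change of the 27 was -0.06. At an unadjusted p under 0.05, 4 were lower, and DESeq2 called 0 lower and 1 higher. The one that rose was TOP1, the topoisomerase that relieves twist ahead of the fork, at 194, 199.9 and 203 CPM in received and 165, 178 and 169.8 CPM in not-received libraries (log2 fold change 0.22 ± 0.06, adjusted p = 0.0162), a call that ended without received replicate 2 or 3 (adjusted p up to 0.0766). Without not-received replicate 2, 2 of the 27 were called lower. The difference between this list and the genes above was not tested.

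Of 13 tested genes of deoxynucleotide supply, 3 rose and 0 fell by edgeR or by DESeq2 (2 were lower at an unadjusted p under 0.05). By edgeR, 9.21% of all tested genes rose and 9.67% fell. NME1, a nucleoside diphosphate kinase, stood at 61.1, 72.7 and 70.0 CPM in received and 54.3, 45.0 and 50.9 CPM in not-received libraries (log2 fold change 0.45 ± 0.09, adjusted p = 0.00316). RRM2B, the p53-inducible small subunit of ribonucleotide reductase, rose by 0.31 ± 0.08 (adjusted p = 0.0174), and SAMHD1, which breaks down deoxynucleotides, by 0.26 ± 0.08 (adjusted p = 0.0319). Without received replicate 1, 1 of the 3 was called, and without not-received replicate 2, 1 of the 13 was called lower. The S-phase genes RRM2 (-0.08 ± 0.05, adjusted p = 0.285) and TYMS (-0.15 ± 0.06, adjusted p = 0.107) were not called, although every received library lay below every not-received one in both.

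Regulators of S-phase entry were lower at the highest rate of these lists. Of 25 genes of E2F, pocket protein and G1/S cyclin control, 13 fell and 2 rose (52% and 8%), with a median log2 fold change of -0.20. Over all tested genes 9.67% fell and 9.21% rose, with a median of -0.00, so the higher share is close to that of all genes. The list of 25 was drawn up with earlier results of these data known, so its direction is not independent evidence. E2F1, an activator of replication genes, stood at 101, 97.8 and 103 CPM in received and 148, 130.3 and 133 CPM in not-received libraries (log2 fold change -0.44 ± 0.06, adjusted p = 0.000404). MYBL2, itself an E2F target, fell by 0.28 ± 0.05 (adjusted p = 0.00253). Both genes of cyclin E, which starts S phase with CDK2, were lower: CCNE1 fell by 0.27 ± 0.07 (adjusted p = 0.024) and CCNE2 by 0.51 ± 0.13 (adjusted p = 0.0139). Both calls ended without any 1 received library, and that of CCNE1 also without not-received replicate 2 (adjusted p = 0.0553) and in DESeq2. CCNA2, the cyclin of S phase and G2, was not called (log2 fold change 0.05 ± 0.06, adjusted p = 0.577), nor was the phosphatase CDC25A (-0.20 ± 0.08, adjusted p = 0.0843).

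Those that rose were E2F5, an E2F of the repressive class (0.44 ± 0.09, adjusted p = 0.00368), and CDKN1A, the p21 inhibitor of cyclin E with CDK2 and a binder of PCNA (0.18 ± 0.06, adjusted p = 0.0387). CDKN1A stood at 322, 345 and 321 CPM against 295, 285 and 294 CPM, and its call ended in 7 of 11 alternatives, among them any 1 received library left out. CDKN2A is listed at 0 counts in every library, as are CCND2, CDKN1C, CDKN2B and CDKN2C of the same list (the last 4 named after their values were seen), and whether the counting dropped them was not tested. Other E2F genes and a pocket protein gene were among the 13 lower ones. E2F4 fell by 0.20 ± 0.07 (adjusted p = 0.0479), E2F8 by 0.32 ± 0.07 (adjusted p = 0.00625) and the pocket protein RBL1 by 0.27 ± 0.07 (adjusted p = 0.0116). E2F4, E2F8 and RBL1 are named after their values were seen. The 13 lower genes became 4, 6 or 4 when received replicate 1, 2 or 3 was left out.

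In the list for the ATR checkpoint, which responds to stalled forks, 0 of 10 genes fell (2 at an unadjusted p under 0.05, 0 by DESeq2) and 1 rose. That list leaves out the fork protection genes given above, of which CLSPN and TIMELESS were called lower and TIPIN was not called. Over all tested genes 9.67% fell and 9.21% rose, so 1 of 10 higher is close to that share. The ATR gene that rose was RAD17, a clamp loader of the checkpoint (log2 fold change 0.35 ± 0.11, adjusted p = 0.0468). Its call ended without any 1 of the 6 libraries and in DESeq2. Of 25 mitotic genes 4 rose and 1 fell (16% and 4%), with a median log2 fold change of 0.04. PTTG1 (securin) rose by 0.27 ± 0.06 (adjusted p = 0.00848), HMMR, a spindle protein, by 0.26 ± 0.06 (adjusted p = 0.00991) and the mitotic cyclin CCNB1 by 0.20 ± 0.06 (adjusted p = 0.0274). The 4 higher genes became 0, 1 or 2 when received replicate 1, 2 or 3 was left out, and CDC20 was the other that rose. The 1 that fell was CENPE, a kinesin of the kinetochore (log2 fold change -0.30 ± 0.09, adjusted p = 0.0497), and no mitotic gene was called lower without not-received replicate 2 or with library size alone. CDC20 and CENPE are named after their values were seen. MKI67 had a log2 fold change of -0.23 ± 0.12 (adjusted p = 0.213) that was -0.07 without not-received replicate 2, and TOP2A of -0.01 ± 0.07 (adjusted p = 0.9).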

How the data were processed

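Messenger RNA was captured on poly-T beads, primed with random hexamers and read as 150 bp pairs, per the labels' protocols. The authors deposited whole-number read counts for each gene symbol, 1 file a library and not normalized. DESeq and R 3.6.1 are named in the submitters' processing notes. The sources used here do not give the aligner, counter, strand setting, genome build or annotation.

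In edgeR 4.0.16 (R 4.3.3), filterByExpr left 14100 of 28833 genes with a count, which held 99.8% to 99.9% of each library. TMM factors, glmQLFit with the robust option and glmQLFTest followed, in a design with the group alone. Benjamini-Hochberg adjustment ran over all 14100 genes, and calls need an adjusted p under 0.05. Fold changes are received over not received, and each SE was taken as |log2 fold change| / sqrt(F). The common coefficient of variation was 9.47%. In the deepest library 3 counts equal 0.0661 CPM, and in the shallowest 0.167 CPM (counting error only). The steps were also run on simulated counts, and the outcome of that run is not used as support here.

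Values per library were given for up to 5 called members of each role with the smallest p and for a fixed set of others. From each related list up to 3 called genes were named, beside a fixed set. The members, roles and lists were chosen with earlier results of these data known. Alternatives were RLE factors, library size alone, DESeq2 1.42.0, no low-count filter, the replicate number as a block and each library left out. Promoters came from a RefSeq table of GRCh38.p14 (the first window per symbol), which 52 of the 60 symbols matched, and merged exon lengths from GENCODE 29 protein-coding transcripts, found for 11622 of 14100 tested genes and all 59 tested members.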

Additional observations from a re-analysis of the deposited data

How the results depend on the processing

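Besides the fits with a library left out, the 5 other alternatives gave 16 to 19 lower and 3 to 6 higher replication genes, and the median log2 fold change of the members stayed between -0.12 and -0.07 in all 11. Without a low-count filter 2084 genes were lower over all genes, 3 of the other replication factors were higher and 1 gene of the ATR list was lower. DESeq2 called 5 of the MCM2 to MCM7 genes. The 1 higher gene of the ATR list became 0 in DESeq2, without the filter, with the block and without any 1 library. With 1 library left out, the counts ran from 7 to 18 for lower and 0 to 6 for higher members, 691 to 1579 for lower and 604 to 1356 for higher genes over all, 3 to 9 for the helicase group, 0 to 3 for the polymerases, 2 to 4 for the clamp group, 1 to 4 for chromatin assembly and 1 to 4 for the MCM ring. In the related lists they ran from 4 to 12 for lower E2F and cyclin genes, 0 to 6 for higher mitotic genes, 1 to 3 for higher deoxynucleotide genes, 0 to 2 for the other replication factors in each direction, and 0 to 1 for lower ATR genes. Fewer samples were fitted in each of these, whichever group lost a library. Lower members numbered 18 without not-received replicate 1, 2 or 3, and 7, 10 and 10 without received replicate 1, 2 or 3. The cause of this difference was not tested. Each leave-one-out fit has 1 group of 2 libraries.

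The groups share replicate numbers, but nothing in the labels says that a number marks a shared culture or day, and same-numbered libraries did not deviate together (r = -0.20, -0.07 and 0.05 for numbers 1, 2 and 3). With the replicate block 16 members were lower and 3 higher, and 18 of the 21 calls were kept, those of ORC2, GINS2 and RFC5 being lost. Of the named genes followed through the alternatives, none called with all 6 libraries changed its direction. E2F4, E2F8, RBL1, CDC20 and CENPE were not followed gene by gene. At this spread, differences the size of those in PCNA or MCM6 fall on either side of the threshold.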
